A study of Mus musculus with 55 samples.

Results

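Messenger RNAs of 10 genes that encode secreted inflammatory proteins were followed in mouse blood-forming cells: the cytokines Il1a, Il1b, Il6 and Tnf, the CC chemokines Ccl3, Ccl4 and Ccl5, and the CXC chemokines Cxcl2, Cxcl10 and Cxcl11. They were chosen by symbol, as 10 of the 55421 genes of the larger count table, with earlier results of these data known. That table holds 46 RNA-seq libraries of hematopoietic stem and progenitor cells sorted from bone marrow of wildtype (WT) and Tet2-/- mice on the C57BL/6 background, and TET2 is an enzyme that oxidises methylated cytosine in DNA. In the Tet2-/- mice the floxed Tet2 alleles (Tet2 f/f) were removed by the Cre recombinase of the Mx1-Cre transgene, which the study switched on with 5 doses of poly(I:C) from 4 weeks of age. The cells of this first set were taken 16 weeks after induction. Poly(I:C) is a double-stranded RNA mimic that itself raises interferon, and Mx1-Cre also acts outside the blood. Whether WT mice received it, and which part of Tet2 the allele lacks, are not given in the sources used here.

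There were 4 libraries for each genotype in common myeloid (CMP), granulocyte-monocyte (GMP), common lymphoid (CLP) and megakaryocyte-erythroid (MEP) progenitors, and 3 WT against 4 Tet2-/- libraries in long-term (LT-HSC) and short-term (ST-HSC) stem cells. The gates were Lin-cKit+Sca1+CD48-CD150+ for LT-HSC, the same without CD150 for ST-HSC, Lin-cKit+Sca1- with CD34 and intermediate CD16/32 for CMP, CD34+ with high CD16/32 for GMP, CD34- with low CD16/32 for MEP, and CD127+ with intermediate Sca1 for CLP. A second table holds 9 LT-HSC libraries, 3 each from WT mice, Sting-/- mice and Tet2;Sting DKO mice, which carry Tet2 f/f;Mx1-Cre on a Sting-/- background. STING is the adaptor through which cytosolic DNA raises interferon. Each library came from 200 sorted cells per the labels, whereas the study's methods give a higher number, and no label says that libraries with the same number came from the same mouse.

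Il1a, Il1b, Tnf and Il6 proteins act on receptors that switch on NF-kB or, for Il6, STAT3, and most of the 10 genes are themselves transcribed within an hour or so of NF-kB or interferon signalling. Ccl3, Ccl4 and Ccl5 draw monocytes, T cells and NK cells. Cxcl2 draws neutrophils through Cxcr2, and the interferon-induced Cxcl10 and Cxcl11 draw activated T cells and NK cells through Cxcr3. In bone marrow, Ccl3 is known as a product of progenitors that restrains stem cell cycling, and Tnf and Il1b push stem cells towards myeloid output. In mm10 coordinates, the CC chemokines lie close together on chromosome 11, with Ccl3 at chr11:83647844-83649355 on the minus strand and Ccl4 at chr11:83662584-83664683 on the plus strand, 13229 bases apart. Cxcl10 at chr5:92346638-92348889 and Cxcl11 at chr5:92359544-92365485 overlap the Art3 gene, 10655 bases from each other. Cxcl2 spans chr5:90903871-90905938 and Tnf spans chr17:35199381-35202007. Il1b at chr2:129364570-129371139 overlaps the antisense gene Il1bos, and Il1a at chr2:129299610-129309972 overlaps Gm14023. Since strand use in the counting is not given in the sources used here, reads of such pairs cannot be told apart. Il6 at chr5:30013114-30019981 and Ccl5 at chr11:83525778-83530518 overlap no other annotated gene.

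Promoters are printed here for Ccl3, Cxcl2 and Tnf, which were called between genotypes, and for the interferon-induced Cxcl10, which was not. RefSeq (GRCm38.p6) gave promoters of 300 bases, 250 before and 50 after the start, for 7 of the 10 members. Those of Ccl3 (chr11:83649329-83649628, minus strand), Cxcl2 (chr5:90903649-90903948, plus strand), Tnf (chr17:35201958-35202257, minus strand) and Cxcl10 (chr5:92348840-92349139, minus strand) follow, 5′ to 3′, with motif matches on either strand in capitals. The motifs were an NF-kB form of 10 letters (GGG at the start, TT at positions 6 and 7, CC at the end), TTCNNTTTC as the core of the interferon-stimulated response element, the AP-1 form TGANTCA, which reads the same letters on both strands, and the TATA box. The last was searched as TATAAA.
Ccl3: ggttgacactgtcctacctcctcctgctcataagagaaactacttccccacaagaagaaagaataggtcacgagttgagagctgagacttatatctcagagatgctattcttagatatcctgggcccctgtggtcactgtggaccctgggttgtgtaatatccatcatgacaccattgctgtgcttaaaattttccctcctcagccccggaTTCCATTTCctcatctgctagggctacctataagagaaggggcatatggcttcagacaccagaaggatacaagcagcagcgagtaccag
Cxcl2: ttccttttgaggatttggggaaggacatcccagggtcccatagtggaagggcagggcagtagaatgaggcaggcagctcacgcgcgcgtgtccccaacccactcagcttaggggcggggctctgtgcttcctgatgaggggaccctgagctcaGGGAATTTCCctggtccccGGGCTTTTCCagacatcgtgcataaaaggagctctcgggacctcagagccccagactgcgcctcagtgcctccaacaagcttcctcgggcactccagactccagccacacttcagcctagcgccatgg
Tnf: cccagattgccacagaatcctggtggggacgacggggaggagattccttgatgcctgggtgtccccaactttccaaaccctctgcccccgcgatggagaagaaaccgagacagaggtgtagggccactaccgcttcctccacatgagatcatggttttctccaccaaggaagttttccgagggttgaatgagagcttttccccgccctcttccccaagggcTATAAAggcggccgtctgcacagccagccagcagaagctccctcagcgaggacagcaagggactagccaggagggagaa
Cxcl10: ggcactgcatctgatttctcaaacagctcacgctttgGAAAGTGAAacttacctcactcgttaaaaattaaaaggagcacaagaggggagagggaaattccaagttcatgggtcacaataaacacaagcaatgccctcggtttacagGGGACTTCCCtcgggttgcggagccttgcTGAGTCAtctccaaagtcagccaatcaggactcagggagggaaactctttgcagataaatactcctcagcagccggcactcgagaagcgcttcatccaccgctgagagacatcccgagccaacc
Cxcl2 held a pair of NF-kB matches, 97 and 78 bases before the start. Cxcl10 held 1 NF-kB match at 103 bases, 1 AP-1 match at 74 bases and 1 interferon core, on the opposite strand, at 213 bases before the start. Tnf matched only the TATA box, 29 bases before the start, and Ccl3 only the interferon core, at 39 bases. Of 32851 promoters of this length, 4.79% held the NF-kB letters, 8.56% the interferon core, 7.81% the AP-1 letters and 13.6% the TATA box. Among the others, Il6 matched NF-kB at 44 and AP-1 at 249 bases, Il1a AP-1 at 12 and TATA at 32 bases, and Il1b TATA at 31 bases before the start. A match describes letters only and no match says nothing of a factor.

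Library totals were 50458473 to 102148079 counts in the first set and 26776517 to 78682096 in the second, where 9382 to 11528 genes had a count against 13754 to 20964 in the first. Counts over the whole Tet2 gene did not separate the genotypes in CMP (median 22.9 CPM on plain library totals in WT and 17.9 in Tet2-/-) or GMP (41.9 and 48.1), and in CLP all Tet2-/- libraries (16.1 to 78.5) lay above all WT libraries (1.6 to 15.6). In the second set Tmem173, the gene of STING, had 6333, 0 and 3835 counts in the libraries labelled Sting-/-, 0, 14 and 1128 in those labelled DKO and 1788, 1168 and 0 in WT. A gene count does not test whether part of a gene was removed, for Tet2 or Tmem173, so it neither bears out nor refutes the labels, and directions in the second set are between libraries as labelled. There WT libraries were high in the female transcript Xist (3543 to 8228 counts), whereas the Y-linked Eif2s3y stood at 7229 to 20154 counts in all libraries labelled Sting-/- or DKO, so sex and genotype cannot be told apart in the comparisons with WT. CLP libraries went with their label in part. Il7r, the gene of CD127, had 11672 to 85879 counts in all 8, and Dntt had at least 10064 and Flt3 at least 1130 in 7 of 8, with 28 and 0 counts in WT library 4. The immunoglobulin gene Ighm took 4.11% to 15.9% of counts in 7 of 8 and 0.0616% in Tet2-/- library 2, and Rag1, a recombinase gene that defines early lymphoid cells, had 0 counts in all 4 WT libraries.

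Ccl3 and Ccl4 were the most abundant of the 10 messages, and Il1a and Cxcl11 were close to absent. Levels are given as CPM, counts scaled to a library total corrected by TMM, whose factors were 0.546 to 1.08 in CLP and 0.949 to 1.18 in the other gates. Per kilobase of transcript, the median level over the 46 libraries was 182 CPM for Ccl4, 124 for Ccl3, 8.26 for Cxcl2, 7.66 for Tnf, 7.16 for Cxcl10, 3.13 for Ccl5, 1.32 for Il1b, 0.0524 for Il6 and 0 for Cxcl11 and Il1a. Single CLP libraries carried the means of Ccl5 (88.7 CPM per kilobase, and 35.5 without Tet2-/- library 2) and Il6 (5.02, and 1.95 without WT library 2). Ccl3 had at least 10 counts in all 46 libraries, Ccl4 and Cxcl10 in 45, Tnf and Cxcl2 in 43 and Ccl5 in 41. By contrast, Il1b reached 10 counts in 36 libraries, Il6 in 20, Cxcl11 in 10 and Il1a in 7, and Il1a was at 0 in 38. A count of 0 allows up to 3 counts, which is under 0.1 CPM in every library of this set, and covers counting error only.

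**Figure D1:**
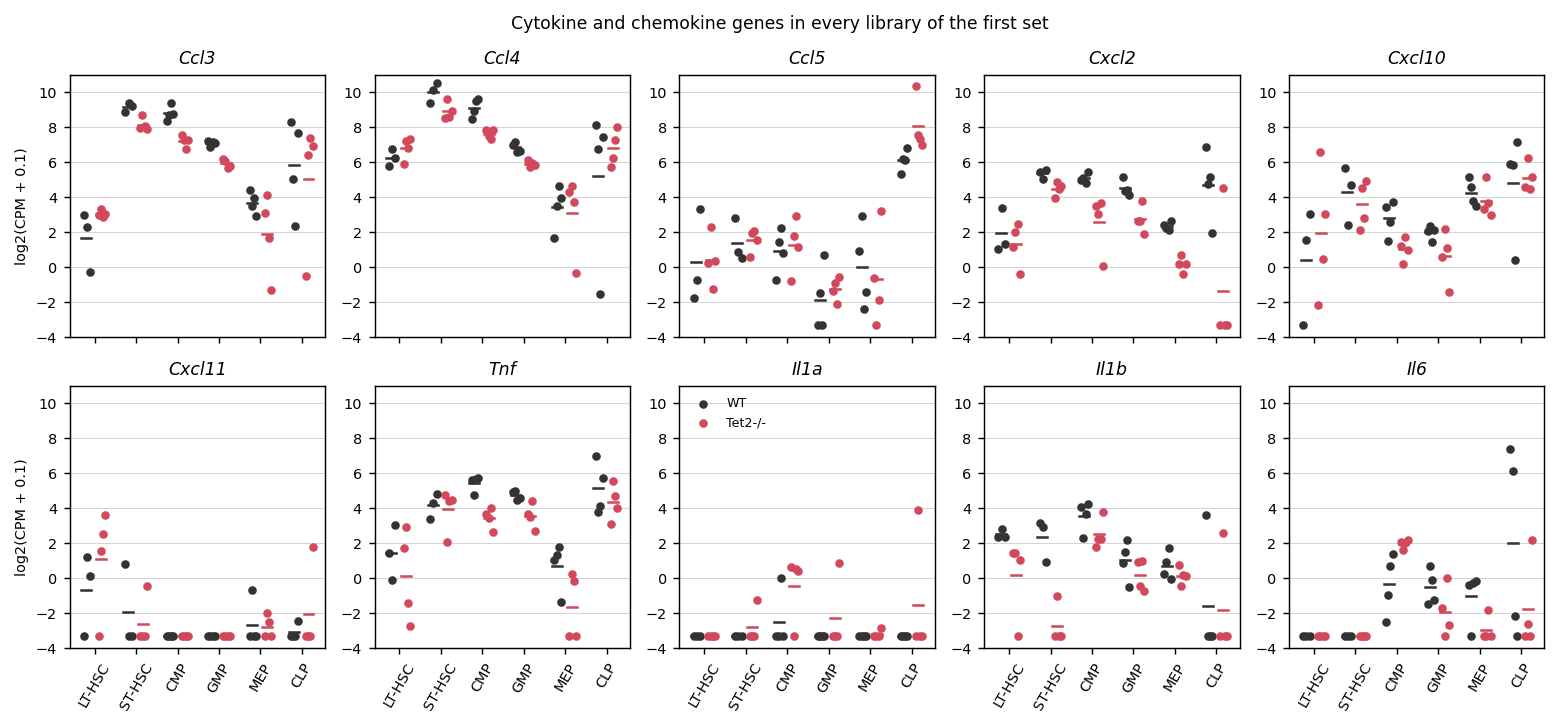
Level of each of the 10 genes in every first-set library, as log2(CPM + 0.1), by population, with WT and Tet2-/- side by side and a line for the mean of the log values of each group. Ccl3 and Ccl4 stand highest in ST-HSC and CMP, Ccl5 stands apart in CLP, and Il1a and Cxcl11 lie at the floor in most libraries.

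Among WT populations, the CC chemokines differed widely in level, and most neighbours in their order overlapped. Ccl3 measured 465, 676 and 582 CPM in ST-HSC and 324, 413, 664 and 437 CPM in CMP. It was 117 to 146 CPM in GMP, 4.95 to 318 CPM in CLP, 7.35 to 20.8 CPM in MEP and 0.712, 4.77 and 7.74 CPM in LT-HSC. ST-HSC and CMP thus overlapped, every CMP library lay above every GMP library, and MEP and LT-HSC overlapped at the bottom. Both stem cell gates differ only in CD150, yet no LT-HSC library of this set reached 10 CPM of Ccl3 in either genotype and no ST-HSC library was under 234 CPM. Ccl4 followed the same order at the top (ST-HSC 666, 1123 and 1473 CPM, and CMP 352 to 762), but in LT-HSC it was 54.2, 75.8 and 106 CPM, above all MEP libraries (3.01 to 25.1). Those LT-HSC levels overlapped with GMP (94.7 to 141 CPM) and CLP (0.237 to 281 CPM). Ccl5 was a message of the CLP gate, where WT libraries had 39.2, 73, 69.4 and 111 CPM. In the other 5 populations no WT library was above 9.84 CPM of Ccl5.

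Cxcl2 and Tnf were spread over ST-HSC, CMP, GMP and CLP. In WT, Cxcl2 was 32.7 to 47.4 CPM in ST-HSC, 28 to 42.5 in CMP, 17.4 to 35 in GMP and 3.8 to 114 in CLP, and all GMP libraries lay above those of MEP (4.22 to 5.99). Tnf was 26.5 to 53.5 CPM in WT CMP, 13.5 to 126 in CLP, 22.3 to 30.9 in GMP and 10.3 to 27.3 in ST-HSC. All of these lay above LT-HSC (0.824 to 8.21) and MEP (0.294 to 3.29). Cxcl10 overlapped between all neighbours in its order, from CLP (1.22 to 139 CPM) down to LT-HSC (0 to 8.17). Il1b was highest in WT CMP, at 4.72 to 19 CPM, with ST-HSC and LT-HSC within reach of it. Il6 was at 0 in all 14 LT-HSC and ST-HSC libraries. Cxcl11 was at 0 in all 16 CMP and GMP libraries and reached 182 counts at most in WT, in an LT-HSC library.

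Across the 6 WT populations, 7 of the 9 members that passed the low-count filter differed by edgeR's quasi-likelihood F test, against 44.6% of all genes tested. The adjusted p was 5.23e-05 for Ccl3, 0.000461 for Tnf, 0.000552 for Ccl4, 0.00127 for Il6, 0.00197 for Cxcl2, 0.00341 for Ccl5 and 0.0294 for Cxcl10. Il1b (adjusted p = 0.474) and Cxcl11 (0.0818) did not pass in the same edgeR test. Without WT replicate 2, in whose CLP library Il6 stood at 163 CPM, the adjusted edgeR p of Il6 was 0.0504, and for Cxcl10 it lay between 0.0308 and 0.18 when single replicates were left out. In Tet2-/- cells 7 of 10 passed, against 40.2% of all genes. These were Ccl5 (edgeR adjusted p = 4.58e-06), Ccl4 (7.98e-05), Ccl3 (0.00054), Il6 (0.0143), Cxcl10 (0.0335), Cxcl11 (0.0344) and Tnf (0.0352), and leaving out any 1 replicate let 4 to 6 members pass, never Tnf (0.0798 to 0.196). Cxcl2, which had passed in WT, had an adjusted edgeR p of 0.256 in Tet2-/- cells. With the CLP libraries left out, Il1b (edgeR adjusted p = 0.00476 in WT and 0.0457 in Tet2-/-) and, in Tet2-/-, Cxcl2 (0.000386) passed as well, while Ccl5 (0.613 and 0.356) and Cxcl10 (0.0621 and 0.056) did not.

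Adjacent genes did not always move as a pair. Ccl4 per kilobase was 1.93 times Ccl3 in the median ST-HSC library of either genotype (range 1.66 to 2.94), 1.39 times in CMP (1.25 to 2.03) and 1.07 times in GMP (0.779 to 1.42). In LT-HSC the ratio was 18.4 (8.13 to 124), so every LT-HSC library lay above every ST-HSC, CMP and GMP library. In MEP it was 2.15 (0.168 to 4.9), and in CLP it ran from 0.0556 to 103. The ratio was computed after the levels had been seen and was not tested. Pearson's r of log2 CPM between these genes was 0.959 over 8 CMP libraries, 0.918 over 7 ST-HSC libraries and 0.259 over 7 LT-HSC libraries, a description over libraries that differ in genotype.

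**Figure D2:**
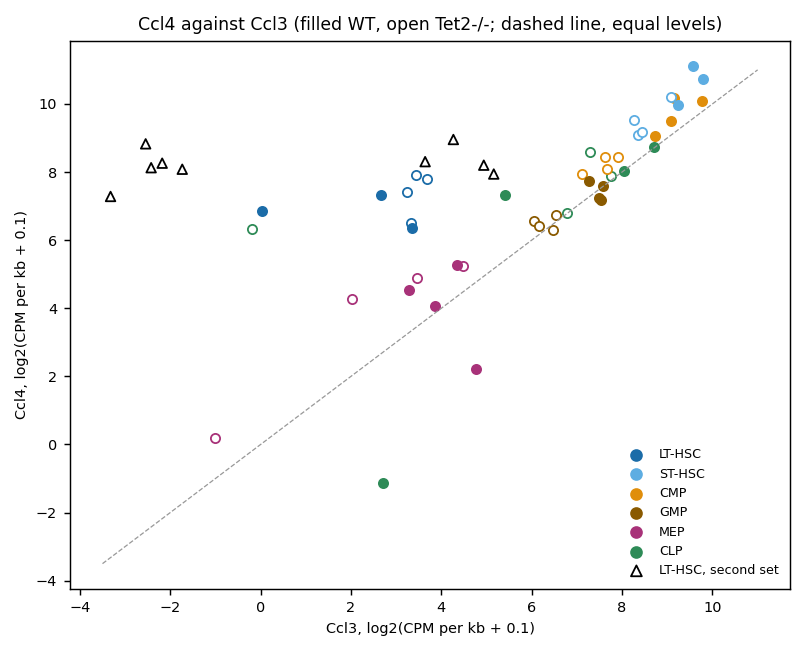
Ccl4 against Ccl3 in each library, both as log2(CPM per kilobase + 0.1), with first-set populations by colour (WT filled, Tet2-/- open), second-set LT-HSC libraries as triangles, and a dashed line where both are equal. First-set LT-HSC libraries sit far above the line, with 8.13 to 124 times more Ccl4 than Ccl3, while ST-HSC, CMP and GMP libraries lie along it.

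The genes whose log2 CPM was most like that of a member over the 46 libraries were named as a description, since these libraries share populations. For Ccl4 these were Il12a (r = 0.907), which encodes a subunit of interleukin 12, the stem cell antigen gene Cd34 (0.870) and the transcription factor gene Runx2 (0.865). For Tnf they were Cd244a (0.836), Cd53 (0.830) and Gm2a (0.814), and for Ccl3 Bex6 (0.794), Fut7 (0.771) and BC035044 (0.758). Ccl5 was most like the lymphoid genes Cd7 (0.849), Ltb (0.817) and Tcrg-C4 (0.803). Cxcl2 (Socs7, 0.729), Il1b (Cdc42ep4, 0.728) and Cxcl10 (Ripk2, 0.683) had weaker likenesses.

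In CMP, Tnf, Ccl3 and Ccl4 were lower in Tet2-/- cells, and the other 6 members tested were not called. Tnf fell from 49.2, 26.5, 50.3 and 53.5 CPM in WT to 12.8, 10.7, 16.2 and 6.03 CPM in Tet2-/-. Ccl3 fell from 459 ± 145 CPM (SD, n = 4) to 185, 155, 105 and 150 CPM, and Ccl4 from 352, 479, 716 and 762 CPM to 229, 180, 162 and 227 CPM. For all 3 genes each Tet2-/- library lay below every WT library. Their log2 fold changes were -1.99 (SE 0.33, edgeR adjusted p = 0.00572) for Tnf, -1.64 (SE 0.24, 0.00333) for Ccl3 and -1.54 (SE 0.25, 0.00491) for Ccl4, and each had an exact permutation p of 0.0286, the smallest that 4 against 4 allows. These 3 were the members called lower, that is with an adjusted p under 0.05 and at least a 2-fold change, out of 9 tested. Of all 16047 genes tested in CMP, 3.92% were called lower and 0.654% higher.

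Cxcl2 and Cxcl10 missed the threshold in CMP by edgeR. Cxcl2 measured 31.4, 33.5, 28 and 42.5 CPM in WT and 10.9, 7.92, 12.7 and 0.928 CPM in Tet2-/- cells, without overlap (log2 fold change -2.07, SE 0.61, edgeR adjusted p = 0.0792, exact p = 0.0286). Cxcl10 was 10.9, 2.74, 5.93 and 13.2 CPM against 2.17, 1.01, 3.18 and 1.87 CPM (-1.99, SE 0.54, edgeR adjusted p = 0.0598). DESeq2 called both, with adjusted p-values of 0.0045 and 0.003, and called 3.74% of its genes lower. Il6 had the opposite order. All 4 Tet2-/- libraries (445, 254, 296 and 397 counts, 2.95 to 4.49 CPM) lay above the WT libraries (5, 32, 119 and 191 counts, 0.0743 to 2.49 CPM), with an exact permutation p of 0.0286 and an edgeR adjusted p of 0.306 (log2 fold change 1.74, SE 0.85). Il1b was 4.72 to 19 CPM in WT and 3.27 to 13.6 CPM in Tet2-/- (-1.01, SE 0.54, edgeR adjusted p = 0.37), Ccl5 stayed under 8 CPM in both, and Il1a had 157, 0, 101 and 110 counts in Tet2-/- against 70 in a single WT library. In all, 4 members (Tnf, Ccl3, Ccl4, Cxcl2) had every Tet2-/- library below every WT library, as did 9.02% of all genes, and 1 (Il6) had every one above, as did 6.77%. Across members tested, 6 of 9 were lower and the median log2 fold change was -1.54, against 0.03 over all genes tested.

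In GMP, Ccl3 and Cxcl2 were the members called lower in Tet2-/- cells. Ccl3 fell from 146, 117, 141 and 137 CPM in WT to 71.4, 67.9, 50.8 and 55 CPM in Tet2-/- (log2 fold change -1.19, SE 0.15, edgeR adjusted p = 0.000371). Cxcl2 fell from 35, 20.1, 21 and 17.4 CPM to 6.03, 6.1, 13.8 and 3.67 CPM (-1.69, SE 0.39, edgeR adjusted p = 0.0233). This last call did not hold without WT replicate 2 or 4 or Tet2-/- replicate 2 or 3, where the adjusted edgeR p reached 0.082. Ccl4, at 94.7 to 141 CPM in WT and 51.6 to 69.8 CPM in Tet2-/-, had an edgeR adjusted p of 0.00224 but a change just short of 2-fold (-0.98, SE 0.15). Tnf was 22.3 to 30.9 CPM and 6.48 to 20.7 CPM (-1.12, SE 0.30, edgeR adjusted p = 0.0546). Groups of these 4 genes did not overlap (exact permutation p = 0.0286 each), as was so, in the lower direction, for 7.28% of all genes. The 2 members called lower stood against 4.06% of the 16563 genes tested, none was called higher, as 0.308% of genes were, and all 8 members tested had a lower fitted level (median -1.07, against 0.03 over all genes). Il1a, with 125 counts in a single Tet2-/- library and 0 in the others, did not pass the low-count filter. Cxcl10 (-0.96, edgeR adjusted p = 0.505), Il1b (-1.02, 0.494), Il6 (-1.29, 0.647) and Ccl5 (-0.29, 0.947) were within the spread.

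In MEP, Cxcl2 was the member that fell. It measured 5.25, 4.61, 4.22 and 5.99 CPM in WT and 1.02, 1.52, 0.663 and 1.01 CPM in Tet2-/- (log2 fold change -2.24, SE 0.37, edgeR adjusted p = 0.00601). It was also the 1 member of 8 tested whose groups did not overlap, as was so for 8.44% of all genes in that direction, and 4.21% of genes were called lower and 0.147% higher. The more abundant Ccl3 (7.35 to 20.8 against 0.302 to 17.1 CPM, -0.95, edgeR adjusted p = 0.706), Ccl4 (0.08, 0.982) and Cxcl10 (11 to 34.7 against 7.65 to 35.5 CPM, -0.36, 0.852) overlapped between genotypes. Tnf was 0.294 to 3.29 CPM in WT and 0, 1.09, 0.784 and 0 CPM in Tet2-/- (-2.04, SE 1.56, edgeR adjusted p = 0.61).

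ST-HSC held the highest levels of Ccl3 and Ccl4, and no member passed the adjusted test there. Ccl3 was 465, 676 and 582 CPM in WT and 249, 414, 264 and 234 CPM in Tet2-/- (log2 fold change -0.95, SE 0.23, edgeR p = 0.00314, adjusted p = 0.377, exact permutation p = 0.0571). By DESeq2 its adjusted p was 0.0242, with a change under 2-fold. Ccl4 was 666, 1123 and 1473 CPM against 362, 780, 378 and 489 CPM (-1.08, SE 0.33, edgeR adjusted p = 0.56), with 3 of 4 Tet2-/- libraries below all WT libraries. Cxcl2 was 43.3, 32.7 and 47.4 CPM against 15.2, 28.5, 21.9 and 24.9 CPM (-0.84, SE 0.29, edgeR adjusted p = 0.578, exact permutation p = 0.0286). Il1b had 520, 638 and 150 counts in WT libraries and 0, 25, 0 and 0 counts in Tet2-/- libraries (-5.57, SE 2.09, edgeR adjusted p = 0.613, exact permutation p = 0.0286). Tnf was level, at 10.3 to 27.3 and 4.07 to 27.2 CPM (-0.01, SE 0.61). In all, Il1b, Ccl3 and Cxcl2 had every Tet2-/- library below every WT library, as did 4.86% of genes. All 7 members tested had a negative fitted change (Tnf turned positive under another scaling), with a median of -0.84 against 0.04 over all genes. Il1b passed the low-count filter through its WT libraries. Il1a, with 29 counts in a single Tet2-/- library, and Cxcl11, with counts in 1 library of each genotype, did not pass it. With edgeR 0% of all genes were called lower and 0.0185% higher, and at an unadjusted p under 0.05 with 2-fold 2 members, Il1b and Ccl4, would pass, as would 1.57% of all genes in the lower direction, whereas DESeq2 called none. Il1b was called there when all libraries but those of CLP shared 1 fit (edgeR adjusted p = 0.0192).

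In LT-HSC no member was called and the fitted changes split in direction. Ccl3 was 0.712 to 7.74 CPM in WT and 7.16 to 9.81 CPM in Tet2-/- (log2 fold change 0.89, SE 0.73), and Ccl4 was 54.2, 106 and 75.8 against 60, 145, 113 and 157 CPM (0.61, SE 0.36). Cxcl10 was 0, 2.83 and 8.17 CPM in WT and 0.122, 95.4, 1.25 and 8.03 CPM in Tet2-/- (2.85, SE 2.12), and without Tet2-/- replicate 3 the fitted change turned to -0.17. Its neighbour Cxcl11 had 0, 182 and 75 counts against 0, 185, 354 and 905 counts (2.24, SE 2.05). Il1b was the 1 member whose groups did not overlap, with 4.91, 6.99 and 5.06 CPM in WT and 2.64, 2.64, 0 and 1.98 CPM in Tet2-/- (-1.61, SE 1.32, exact permutation p = 0.0857), as 3.84% of genes did in that direction. The edgeR adjusted p was 0.998 for all 8 members tested. No member was called by edgeR, at an unadjusted p under 0.05 with 2-fold or by DESeq2, and 0% of all genes were called lower and 0.0245% higher. The 8 fitted changes split 4 to 4, with a median of 0.07 against 0.06 over all genes.

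CLP libraries varied widely within each genotype. Ccl5 was the member whose groups did not overlap, at 39.2, 73, 69.4 and 111 CPM in WT and 1322, 183, 162 and 127 CPM in Tet2-/- (log2 fold change 2.56, SE 0.83, edgeR p = 0.013, adjusted p = 1, exact permutation p = 0.0286). Without Tet2-/- replicate 2 the fitted change of Ccl5 was 1.05 (edgeR adjusted p = 0.904). All Tet2-/- libraries were above all WT libraries for Ccl5, as for 2.21% of genes, and no member had all below, against 1.82% of genes. Il6 was 163 and 69.4 CPM in WT libraries 2 and 3, 0.119 and 0 CPM in the other two, and 4.33 CPM at most in Tet2-/-. Cxcl2 was 114, 26.7, 34.8 and 3.8 CPM in WT and 0, 23.1, 0 and 0 CPM in Tet2-/- (-2.89, SE 2.50). Tnf (13.5 to 126 against 8.35 to 46.1 CPM), Ccl3 (4.95 to 318 against 0.592 to 165 CPM), Ccl4 (0.237 to 281 against 52.5 to 254 CPM) and Cxcl10 (1.22 to 139 against 22.1 to 75.6 CPM) overlapped. No member was called, by DESeq2 either, and Ccl5 alone passed at an unadjusted p under 0.05 with 2-fold, as did 1.33% of all genes in the higher direction. With adjustment 0% of all genes were called lower and 0.00766% higher.

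Markers of other cells went with some of these CLP values and not with others. The summed level of 8 basophil and mast cell genes was 3122 and 2814 CPM in WT libraries 2 and 3, where Il6 was high, and 43.1 and 63.3 CPM in WT libraries 4 and 5. It was 125, 732, 6.33 and 84.9 CPM in Tet2-/- libraries 2 to 5, and library 3, with 732 CPM, was the one with Il1a (14.8 CPM), Il1b (5.79 CPM) and Cxcl2 (23.1 CPM). Yet the highest Il6 in Tet2-/- (4.33 CPM) was in library 5, and WT library 3 had 0 counts of Il1b. The defining basophil gene Mcpt8 had 72380 and 37823 counts in WT libraries 2 and 3 and 0 to 13989 in the other 6. Of 12 T and NK cell genes, 6 were tested and all 6 were higher in Tet2-/- (median log2 fold change 1.37, none called). Their sum was 2589 CPM in Tet2-/- library 2, where Ccl5 was 1322 CPM, and 240 to 906 CPM in the other 7. In that library the NK receptor gene Ncr1 had 111552 counts and Nkg7 54327, whereas of the T cell genes Cd3e and Cd8a were at 0 in all 8 libraries, Cd3d had 150 counts at most, Cd3g 439 and Cd4 5157 (0 in that library). WT library 2, which held the highest T and NK sum among WT libraries (906 CPM), had the lowest Ccl5 of all (39.2 CPM). Sums of the GMP label genes were 4.77 to 3177 CPM for WT against 2.65 to 12446 CPM for Tet2-/- CLP libraries, and the CLP label genes, Ighm included, did not overlap (146380 to 268717 against 2205 to 132643 CPM). The part of these cells in the CLP results was not tested. In bulk samples of this kind, fewer cells of a type and less RNA per cell cannot be told apart.

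**Figure D3:**
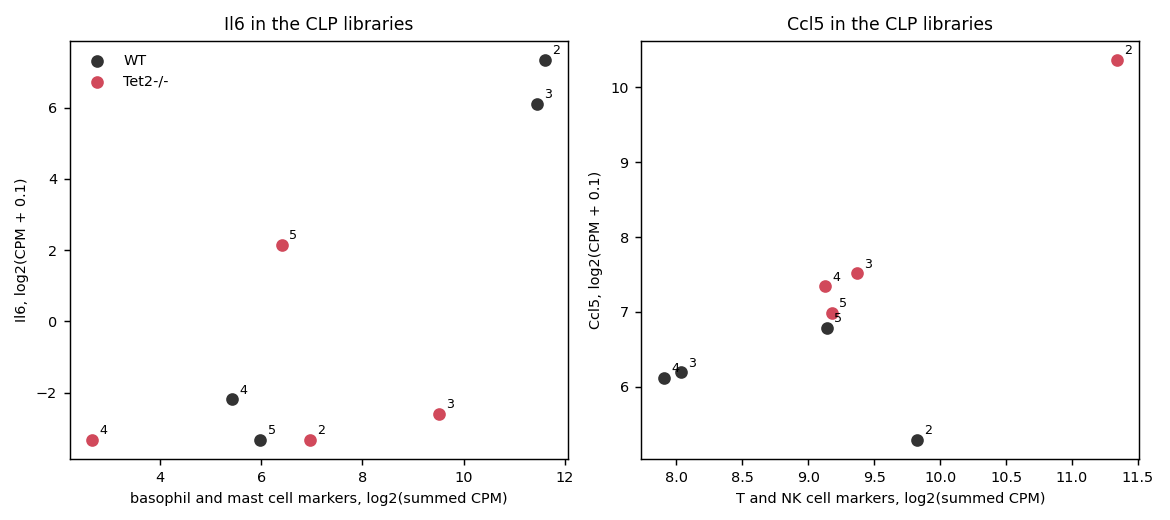
Members and summed marker genes in the 8 CLP libraries, on log2 scales of CPM (plus 0.1 for the members), each point numbered by library: Il6 against the basophil and mast cell sum, and Ccl5 against the T and NK cell sum, WT and Tet2-/- by colour. Il6 is high in the WT libraries with basophil sums of 3122 and 2814 CPM, and the highest Ccl5 value goes with the highest T and NK sum.

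In CMP too, marker sums differed with genotype. The MEP label genes (6 genes, among them Gata1, Klf1 and Car1) summed to 668 to 1668 CPM in WT and 2904 to 5752 CPM in Tet2-/-. Car1 (log2 fold change 2.03, edgeR adjusted p = 0.0111) and Epor (1.03, 0.0222) rose, while Klf1 fell (-1.51, 0.0113). The dendritic cell list (108 to 153 against 58.4 to 99.5 CPM) did not overlap between genotypes. Nor did the basophil and mast cell list (172 to 219 against 287 to 555 CPM). The neutrophil list (7.89 to 10.2 against 11.3 to 16.7 CPM) and the CLP label genes (183 to 291 against 116 to 145 CPM) did not overlap either. The 6 GMP label genes overlapped (3803 to 5307 against 3494 to 3816 CPM). So did the lists of monocytes and macrophages (540 to 914 against 353 to 664 CPM), T and NK cells, B cells and the LT-HSC label. In GMP the genotypes did not overlap for the MEP label (87 to 111 against 126 to 172 CPM), CLP label (114 to 185 against 92.2 to 107 CPM) and LT-HSC label genes (212 to 276 against 314 to 353 CPM), and the basophil gene Ms4a2 fell (-1.95, edgeR adjusted p = 0.0232). The other lists overlapped in GMP, among them monocytes and macrophages (1267 to 2029 against 1491 to 2061 CPM) and dendritic cells (90.6 to 138 against 99.2 to 117 CPM). In MEP the LT-HSC label genes alone did not overlap (262 to 306 against 329 to 361 CPM), and Klf1 fell (-3.13, edgeR adjusted p = 0.000203). The part of cell composition in the CMP, GMP and MEP results was not tested.

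**Figure D4:**
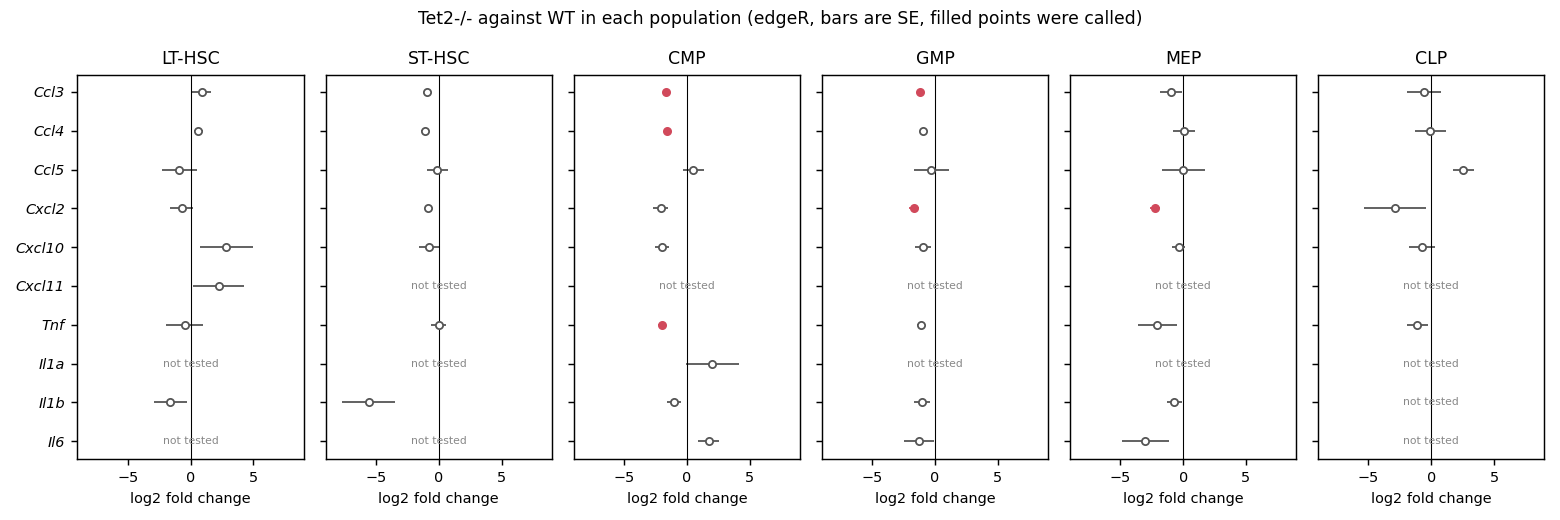
Log2 fold change of Tet2-/- against WT for each member and population, edgeR estimates with bars of 1 SE, filled where called (adjusted p under 0.05 and at least 2-fold). The filled points are Tnf, Ccl3 and Ccl4 in CMP, Ccl3 and Cxcl2 in GMP and Cxcl2 in MEP, all below 0.

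Averaged over the 6 populations, Cxcl2 was lower in Tet2-/- cells, with an averaged change of -1.75 on the log2 scale (SE 0.50, adjusted p = 0.0236 by edgeR). It was the only member to pass, against 4.01% of the 22360 genes tested that were lower and 2.93% that were higher. The call was lost without WT replicate 2 or 3 or Tet2-/- replicate 2 or 5 (adjusted edgeR p up to 0.111), and without Tet2-/- replicate 3 the averaged change was -3.06. The averages were -1.82 (SE 0.74, adjusted p = 0.133) for Il1b, -1.13 (SE 0.43, 0.112) for Tnf, -0.74 (SE 0.35, 0.269) for Ccl3 and -0.50 (SE 0.32, 0.517) for Ccl4 in the same edgeR fit. With the CLP libraries left out, an alternative chosen after seeing the data, Cxcl2 (-1.49, SE 0.26, adjusted p = 8.39e-05) and Il1b (-1.96, SE 0.49, 0.0053) passed by edgeR. Il1a, Il6 and Cxcl11 gave no usable average, since whole groups were at 0. No member's Tet2 effect differed between populations by the edgeR interaction test (adjusted p from 0.673 for Cxcl10 up to 1, and none with an unadjusted p under 0.05), whereas 2.65% of all genes did. With limma, where libraries of 1 genotype and number were taken as 1 mouse, Cxcl2 passed this interaction test (adjusted p = 0.0336). Without Tet2-/- replicate 3 it passed by edgeR for Cxcl2 (adjusted p = 7.78e-05) and Il1b (0.0491). The calls within CMP, GMP and MEP were lost when all 46 libraries shared 1 estimate of spread (edgeR adjusted p 0.544 to 1). When that fit left out the CLP libraries, Cxcl2 was called in MEP (edgeR adjusted p = 0.0196) and in CMP (0.0356), whereas Ccl3 (0.149), Ccl4 (0.15) and Tnf (0.366) in CMP and Ccl3 (0.592) and Cxcl2 (0.181) in GMP were not.

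Immediate early genes, which any brief stimulus, cell handling included, switches on, were lower in Tet2-/- CMP for 16 of 17 tested, with 9 called and a median log2 fold change of -1.16. Dusp1, a phosphatase gene that ends MAP kinase signals, fell by 2.82 on the log2 scale there (edgeR adjusted p = 0.000122), and Ier2 (-2.64, 0.000444), the AP-1 subunit gene Junb (-2.27, 0.00258), Atf3 (-2.26, 0.00027) and Nr4a1 (-2.14, 0.0235) fell as well in this edgeR test. In GMP 16 of 17 were lower and 4 called (Dusp1 -4.20, Jun -2.72, Atf3 -2.38, Klf6 -1.35), in MEP 16 of 16 and 7 called (Ier2 -2.73, Junb -2.68, Dusp1 -2.53, Jund -1.81 and Ier5 -1.48 among them), and in CLP 17 of 17 and none called, with a median of -1.46. In LT-HSC and ST-HSC the list's medians were 0.19 and -0.19. The list's sum was 3311 to 5276 CPM in WT CMP against 947 to 2026 in Tet2-/-, 3074 to 4092 against 1036 to 2046 in GMP, and 1249 to 1577 against 295 to 683 in MEP. In CLP, where no member was called, it was 20536 to 30902 against 5346 to 12040 CPM. The sum therefore separated the genotypes in each gate in which a member was called, and also in CLP. Its part in those calls was not tested.

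**Figure D5:**
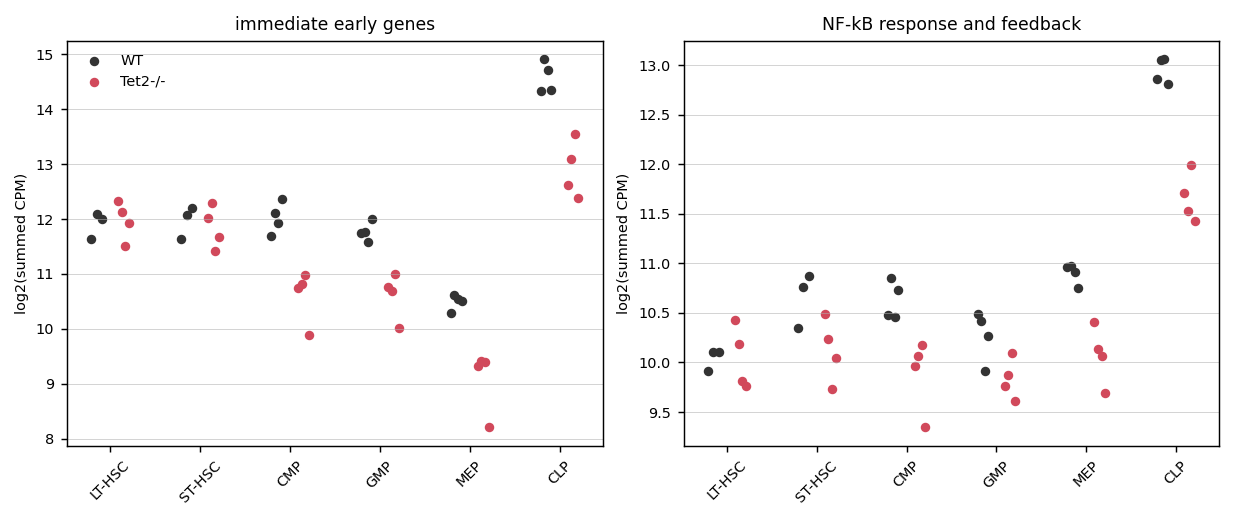
Summed level of the immediate early and NF-kB response genes in each first-set library, as log2 of the summed CPM, by population and genotype. For the immediate early genes no Tet2-/- library of CMP, GMP, MEP or CLP reaches the WT range, whereas LT-HSC and ST-HSC libraries overlap.

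NF-kB response and feedback genes had negative fitted changes for 17 of 22 tested in CMP (median -0.60), where Relb (-3.66, edgeR adjusted p = 0.0428) and Nfkbia (-1.32, 0.0128) were called. In GMP 16 of 21 were lower, with Tnfaip3 (-2.78, 0.000315), Nfkbiz (-2.15, 0.00299) and Nfkbia (-1.14, 0.0109) called, and in MEP 16 of 20, with Tnfaip3 (-2.13, 0.0232), Nfkbiz (-2.08, 0.0114) and Nfkbia (-1.50, 0.00941) called, all by edgeR. The list had 16 of 22 lower in ST-HSC (median -0.31) and 16 of 21 in CLP (-0.46), and 9 of 22 in LT-HSC (0.16), with none called. Its sums did not overlap in CMP (1411 to 1853 against 651 to 1156 CPM), MEP (1722 to 2016 against 825 to 1355) and CLP (7160 to 8546 against 2760 to 4069), and overlapped in GMP (968 to 1433 against 784 to 1092). Nfkbia and Tnfaip3 encode brakes on NF-kB that NF-kB itself induces. Interferon response genes had positive median log2 fold changes, 0.43 in LT-HSC, ST-HSC and MEP, 0.25 in CMP, 0.65 in GMP and 0.53 in CLP, where those of all genes tested were 0.03 to 0.07. Their sums did not overlap in LT-HSC (457 to 651 CPM in WT against 688 to 920 in Tet2-/-) and GMP (226 to 299 against 307 to 397), and overlapped in the other 4 gates. Of them Ifi44 was the one called, in CMP (1.30, edgeR adjusted p = 0.0378) and GMP (1.84, 0.033). Other cytokines called were Ltb (-3.46, 0.0286) and Osm (-1.57, 0.00448) in CMP, of 18 tested there by edgeR, and in the average over populations Osm was lower (-0.99, edgeR adjusted p = 0.0447) and the platelet chemokine gene Pf4 higher (1.62, 0.0289). The adaptor gene Tradd of the Tnf receptor fell in CMP (-1.47, edgeR adjusted p = 0.0095) and MEP (-2.23, 0.00164), and Irak3, a brake on interleukin 1 signals, in CMP (-1.07, 0.0411).

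Receptors of the members were present in part. Mean levels of Tnfrsf1a ran from 3.92 CPM (Tet2-/- MEP) to 125 CPM (Tet2-/- GMP), and those of Il1r1 from 1.42 (WT MEP) to 29.5 CPM (WT ST-HSC). Ccr1, a receptor of Ccl3 and Ccl5, ranged from 0 in Tet2-/- LT-HSC to 148 CPM in WT GMP. Cxcr3 reached 126 CPM in CLP, and Cxcr2 20.4 CPM in Tet2-/- GMP. Of 17 receptor and decoy genes, 11 were tested in CMP, 10 in GMP and 6 in MEP. The interleukin 6 receptor gene Il6ra was called in CMP (-2.35, SE 0.50, edgeR adjusted p = 0.0215) and GMP (-2.37, SE 0.30, 0.000417). The interleukin 1 decoy receptor gene Il1r2 was called in CMP (-6.68, SE 1.36, edgeR adjusted p = 0.0105) and in the average over populations (-2.70, SE 0.76, 0.0102). These calls were all lower in Tet2-/-. Of all genes tested, 3.92% in CMP, 4.06% in GMP and 4.01% in the average were called lower. The antagonist gene Il1rn was at 0.222 CPM or less in every group.

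In the second set, whose levels were scaled apart from the first, LT-HSC held more Ccl4 than Ccl3. Ccl4 had 4422 to 21944 counts in all 9 libraries, at 162, 194 and 327 CPM in WT, 179, 209 and 184 CPM in Sting-/- and 202, 300 and 103 CPM in DKO. Ccl3 was 14.7 to 27.3 CPM in WT, above every LT-HSC library of the first set (0.712 to 9.81 CPM), 0.0662 to 9.48 CPM in those labelled Sting-/- and 0.0925 CPM at most in DKO. Ccl3 counts were 1078, 801 and 417 for WT, 8, 391 and 4 for those labelled Sting-/- and 3, 4 and 0 for those labelled DKO. The fitted Ccl3 change was -7.87 for DKO against WT (SE 2.75, edgeR p = 0.0127, adjusted p = 0.202, exact permutation p = 0.1) and -2.73 for libraries labelled Sting-/- against WT (SE 2.33, adjusted p = 1). In both, all 3 libraries lay below all WT libraries, and 3 against 3 cannot give an exact permutation p under 0.1. The share of all genes that did so was not counted in the second set. DESeq2 called Ccl3 in DKO (-8.88, adjusted p = 3.8e-17), as it called 8.83% of its genes lower, and at counts this low the fitted size depends on the prior count.

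Cxcl10 was at 0 in 2 of 3 WT libraries (689 counts in the other) and in 2 of 3 labelled Sting-/- (2745 in the other), and had 8851, 4761 and 581 counts in DKO (4.09 against WT, SE 2.56, edgeR adjusted p = 0.628). Tnf had 2112, 509 and 0 counts in WT, 0, 546 and 0 where labelled Sting-/- and 2, 1353 and 0 in DKO. Cxcl2 had 2188, 407 and 808, then 1, 1256 and 2353, then 821, 55 and 0 counts. Il6, Ccl5 and Cxcl11 were at 0 in all 9 libraries, and Il1b had 500 counts in a single library labelled Sting-/-. No member was called by edgeR in any of the 3 comparisons, which share their control libraries. Of all genes, 0% were called lower and 0% higher for Sting-/- against WT, 0.616% and 0.041% for DKO against WT, and 0.159% and 0% for DKO against Sting-/-. At an unadjusted p under 0.05 with 2-fold, 1 member (Ccl3, DKO against WT) would pass, as would 7.8% of all genes in that direction. Nfkbia fell in libraries labelled DKO against WT (-3.37, edgeR adjusted p = 0.0132) and against Sting-/- (-4.22, 0.0196), as did Junb (-6.40, 0.00854, and -4.71, 0.0475). Ier2 fell in DKO against WT (-4.91, edgeR adjusted p = 0.00341).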

How the data were processed

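Bulk RNA-seq counts from sorted mouse bone marrow cells (SMART-Seq2 chemistry) were used as deposited. The authors trimmed reads with Trim Galore and aligned them with HISAT2 to mm10. The counting program, its strand setting and its annotation are not given in the sources used here. Both deposited tables hold raw whole-number counts per gene and library, and the second also holds the gene length in bases, a column of another kind that the authors deposited beside the counts and that was not tested. From the second table, 2 broken lines were dropped. Columns were matched to samples by name, and gene coordinates are those of mm10.

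Each population was fitted alone with edgeR 4.0.16 (R 4.3.3), after filterByExpr and TMM scaling, with the quasi-likelihood test and Benjamini-Hochberg adjustment over all genes. A call needed an adjusted p under 0.05 and at least a 2-fold change (adjusted p alone for F tests and the average). Log2 fold changes used a prior count of 2. Exact two-sided permutation tests used the mean of log2(CPM + 0.1), and their smallest p is 0.0286 for 4 against 4. The study describes the libraries of a group as coming from separate mice, which the labels do not state. Alternatives were DESeq2 1.42.0, limma 3.58.1, other scaling and filtering, 1 fit over all libraries, a replicate block, leaving out each library and, chosen after seeing the data, leaving out the CLP libraries. The tests were checked on simulated counts. All 10 members, every called gene of the pathway lists (the 5 of largest change per list and population) and the 3 most alike genes per member are the named genes, and marker and library checks were named besides. The members and lists were chosen with earlier results of these data known. CPM values were scaled by TMM over all libraries of a set, except those of Tet2, which used plain library totals.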

Additional observations from a re-analysis of the deposited data

Results flagged for a closer look

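In groups of 4 libraries, 21 of 88 member and group combinations held a library whose gap to its nearest neighbour exceeded, as a share of the group's range, the 95% limit of Dixon's test, which chance gives in about 1 in 20 groups. The groups with mostly 0 counts make such a gap whenever a single library has counts. In CLP the Tet2-/- library 3 stood apart for Il1a (14.8 CPM), Il1b (5.79 CPM) and Cxcl2 (23.1 CPM), library 5 for Il6 (4.33 CPM) and Cxcl11 (3.33 CPM) and library 2 for Ccl5 (1322 CPM), and WT library 2 stood apart for Il1b (11.9 CPM). In CMP, each within its own genotype, WT library 4 stood high for Il1a (0.885 CPM) and WT library 3 low for Tnf (26.5 CPM), and Tet2-/- library 3 stood low for Il1a (0 CPM) and Tet2-/- library 5 high for Il1b (13.6 CPM). In GMP the Tet2-/- library 5 stood high for Il1a (1.69 CPM) and WT library 5 for Ccl5 (1.51 CPM). In MEP the Tet2-/- library 4 stood high for Il6 (0.181 CPM), Tet2-/- library 5 for Ccl5 (8.93 CPM) and WT library 3 for Cxcl11 (0.519 CPM). In ST-HSC the Tet2-/- library 5 stood high for Il1a (0.321 CPM) and Cxcl11 (0.641 CPM), and library 3 for Il1b (0.398 CPM) and Ccl3 (414 CPM). In LT-HSC the Tet2-/- library 3 stood high for Cxcl10 (95.4 CPM).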

How the results depend on the processing

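The calls of Tnf, Ccl3 and Ccl4 in CMP and Ccl3 in GMP held in 14 of 16 alternatives each, Cxcl2 in MEP in 15 and Cxcl2 in GMP in 10, and each was lost when all 46 libraries shared 1 fit, which left 0 members called in CMP, 0 in GMP and 0 in MEP. The same fit with the CLP libraries left out, chosen after seeing the data, called 1 in CMP, 0 in GMP, 1 in MEP and 1 in ST-HSC, and the average then passed for 2 members and turned to -0.15 for Ccl5. The causes were not tested. DESeq2 called 5 members in CMP and 1 for DKO against WT. An unadjusted p under 0.05 with 2-fold gave 5 in CMP, 2 in ST-HSC, 1 in CLP and 1 for DKO against WT. Limma gave 3 members (Il1b, Tnf and Cxcl2) for the average and 1 for the interaction. Leaving out 1 library gave 1 to 4 members in GMP, 4 to 6 for the populations in Tet2-/-, 0 to 2 for the average and 0 to 2 for the interaction. Within a gate, WT and Tet2-/- libraries of the same number did not deviate together (22 pairs, r from -0.0276 to 0.0403, none over 0.1). That check says nothing of same-numbered libraries from different gates. A fit with the replicate block gave 3 members in CMP, 3 in GMP, 1 in MEP and 0 in the other pairs, 6 and 8 across populations in WT and Tet2-/-, and turned uncalled log2 fold changes of Ccl5 to 1.29 in LT-HSC, 0.10 in ST-HSC, 1.29 in GMP and -0.60 in MEP, of Ccl4 to -0.15 in MEP, 0.33 in CLP and -0.01 for DKO against Sting-/-, and of Ccl3 to 0.14 in CLP. Scaling by size factors turned Tnf in ST-HSC to 0.01, and the single fit turned Ccl5 in MEP to -0.02. With single libraries left out, uncalled log2 fold changes ran across 0: in LT-HSC from -1.66 to 0.66 for Tnf, -1.98 to 2.32 for Ccl5, -1.13 to 0.46 for Cxcl2 and -0.17 to 4.19 for Cxcl10; in ST-HSC from -0.30 to 0.34 for Tnf, -0.49 to 1 for Ccl5 and -1.26 to 0.06 for Cxcl10; for Ccl5 from -0.22 to 1.08 in CMP, -0.69 to 1.75 in GMP and -3.24 to 1.69 in MEP; in MEP from -0.31 to 0.55 for Ccl4 and -1.05 to 0.04 for Cxcl10; in CLP from -1.03 to 0.10 for Ccl3, -0.59 to 0.41 for Ccl4 and -1.33 to 0.01 for Cxcl10. For Sting-/- against WT they ran from -0.48 to 0.06 for Ccl4 and -1.06 to 0.16 for Cxcl2, for Ccl4 from -0.62 to 0.14 in DKO against WT and -0.26 to 0.43 in DKO against Sting-/-, and for the average from -0.15 to 1.07 for Ccl5 and -1.12 to 0.04 for Cxcl10. Over all genes, 734 calls in CMP became 1234 by DESeq2, 1292 unadjusted, 1105 without the fold limit and 285 in the single fit, 723 in GMP became 1169, 1086 and 219 (unadjusted, no fold limit, single fit), and 651 in MEP became 1049, 1085 and 423 (DESeq2, unadjusted, single fit). In LT-HSC 4 calls became 233, in ST-HSC 3 became 332 and in CLP 1 became 470 by DESeq2. The single fit without the CLP libraries gave 92 in LT-HSC, 128 in ST-HSC and 423 in GMP. Il1a was at 0 in 38, Cxcl11 in 34 and Il6 in 22 of 46 libraries, where a change under the limit of 3 counts cannot be seen.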
